A study of Homo sapiens with 12 samples.

Results

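The cytosolic ribosomal proteins are the protein subunits of the ribosome outside the mitochondria, and 58 of their genes were read here of 11963 genes measured in RKO cells. A gene was taken where a probe set, the group of short probes that reads 1 transcript, named that gene alone and its symbol was RPL or RPS with a number. Kinases of the RPS6K family and pseudogenes were left out. The 58 genes comprised 36 of the large subunit and 22 of the small subunit, on 96 probe sets, and for each gene the brightest of its probe sets over all arrays was used, also among the genes given separately. Another 16 ribosomal protein genes were found only on probe sets that also name a second gene and are given separately.

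RKO is an established human colorectal cancer cell line, and all arrays come from this 1 line, in which no gene was altered. Cells attached for 48 h and were then exposed for 24 h to 20 µM thymoquinone (TQ, a quinone of black cumin seed), to 5-fluorouracil (5-FU, a pyrimidine analogue used in colorectal cancer) at approximately 76.8 µM, which is 10 µg/mL, to both drugs at these doses (TQ+5-FU), or to neither (control). In the labels the controls are untreated, while the study's methods give them the solvent DMSO. Each group has 3 arrays. The study's methods refer to independent biological replicates, while the labels do not say whether these arrays were separate cultures. P-values therefore measure the spread between arrays, which may be technical. A signal is relative to the RNA of a whole culture, in which fewer cells with a transcript and less of it per cell cannot be told apart.

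Each ribosome holds 1 copy of nearly every ribosomal protein, and the genes are expressed together at very high levels in growing cells. Many of their mRNAs begin with a C followed by a run of pyrimidines, the 5′ terminal oligopyrimidine (TOP) tract, through which the cell adjusts their translation. Several members also act outside the ribosome. RPL5 and RPL11 bind MDM2, the ligase that degrades p53, and RPS27L, a close relative of RPS27, is a known transcriptional target of p53.

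The start sites of 6 genes are shown because they set RPS27L, the member with the largest difference, beside its relative RPS27 and other members. They were taken from RefSeq on GRCh38.p14, as 15 bases before the annotated start and 15 from it on, and capitals mark the unbroken run of C and T that includes the start base.
RPS27L (chr15:63157463-63157492, minus strand): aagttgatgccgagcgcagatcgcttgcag
RPS27 (chr1:153990747-153990776, plus strand): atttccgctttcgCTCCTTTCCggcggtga
RPL10A (chr6:35468386-35468415, plus strand): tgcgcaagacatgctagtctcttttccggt
RPL3 (chr22:39319609-39319638, minus strand): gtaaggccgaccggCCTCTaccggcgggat
RPS6 (chr9:19380222-19380251, minus strand): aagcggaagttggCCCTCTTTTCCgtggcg
RPL41 (chr12:56116618-56116647, plus strand): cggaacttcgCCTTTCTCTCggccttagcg
Of the 58 members, 50 matched an entry of the promoter table. A start base C followed by at least 4 bases of C or T, read on the sense strand, was found at an annotated start of 34 of these 50 genes (68%), against 988 of 15843 protein-coding genes (6.24%). Among the paralogs, which are second copies of a ribosomal protein gene, 1 of 5 had such a start, against 33 of the 45 other members. The paralog RPL36AL did not meet this rule, although a run of 15 bases of C and T spans its annotated start. RPL3, with a run of 5 such bases there, did not meet it either. Of the starts checked, 70.9% matched the gene annotation, so these counts depend on the annotated start base. RPS27L has no pyrimidine run at the start annotated here, and RPS27 has one.

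The promoter of RPS27L is shown because the gene is a known p53 target. Capitals mark the match to the p53 half-site consensus, which starts 59 bases before the annotated start.
RPS27L (chr15:63157502-63157561, minus strand): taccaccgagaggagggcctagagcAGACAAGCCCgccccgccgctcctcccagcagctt
The consensus reads the same on both strands. Between 250 bases before and 50 bases after a start it was matched in 8 of the 50 members (16%) and in 1278 of the 15843 coding genes (8.07%). Apart from RPS27L the 8 were RPL29, RPL37A, RPL6, RPS18, RPS19, RPS23 and RPS27, and a match is a description of letters only.

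All values below are log2 signals, which the authors had normalized by RMA, and a difference of 1 is a doubling. The array medians lay between 6.33 and 6.55. The labelled cell type was checked with epithelial markers, of which KRT18, EPCAM and CDX2 averaged 12.20, 9.20 and 6.75, whereas KRT19, CDH1, VIL1 and KRT20 averaged 3.66, 3.73, 3.84 and 3.00. Markers of leukocytes, fibroblasts and endothelium averaged between 2.41 (LUM) and 8.18 (COL1A1). The 5-FU replicate 3 array stood apart from its replicates, with a mean correlation of 0.911 to the other arrays of its group over all probe sets. Earlier results of these data had also singled out TQ+5-FU replicate 2 (0.978), and results that rest on these 2 displaced arrays are given with and without them.

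The ribosomal protein genes were among the brightest transcripts of the cells. The median member level was 13.87, at percentile 99.7 of the levels of all genes, whose median was 7.18. On each array, 45 to 48 members lay in the brightest 1% of probe sets (222 of 22215). RPL41, which encodes the smallest ribosomal protein, gave the highest signal of any probe set on all 12 arrays. It read 14.33, 14.29 and 14.31 with TQ, 14.34, 14.32 and 14.32 with 5-FU, 14.32, 14.34 and 14.32 with TQ+5-FU, and 14.32, 14.29 and 14.30 in control.

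The bright members also varied little. Of the 58 members, 49 had a mean over 13, and 38 of these 49 ranged over less than 0.2 across all 12 arrays. Their median range was 0.107, against 0.317 for 142 other single-gene probe sets with a mean over 13 and 1.03 for all probe sets. Within groups the median SD was 0.0240 for the bright members, against 0.0641 for the bright others and 0.258 for all probe sets. The maximum of each array lay between 14.29 and 14.34, so many members sat just under the upper end of the scale. Scanner saturation flags are not part of the values used here. The part of this upper end, and of the normalization across arrays, in the small differences was not tested.

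**Figure D1:**
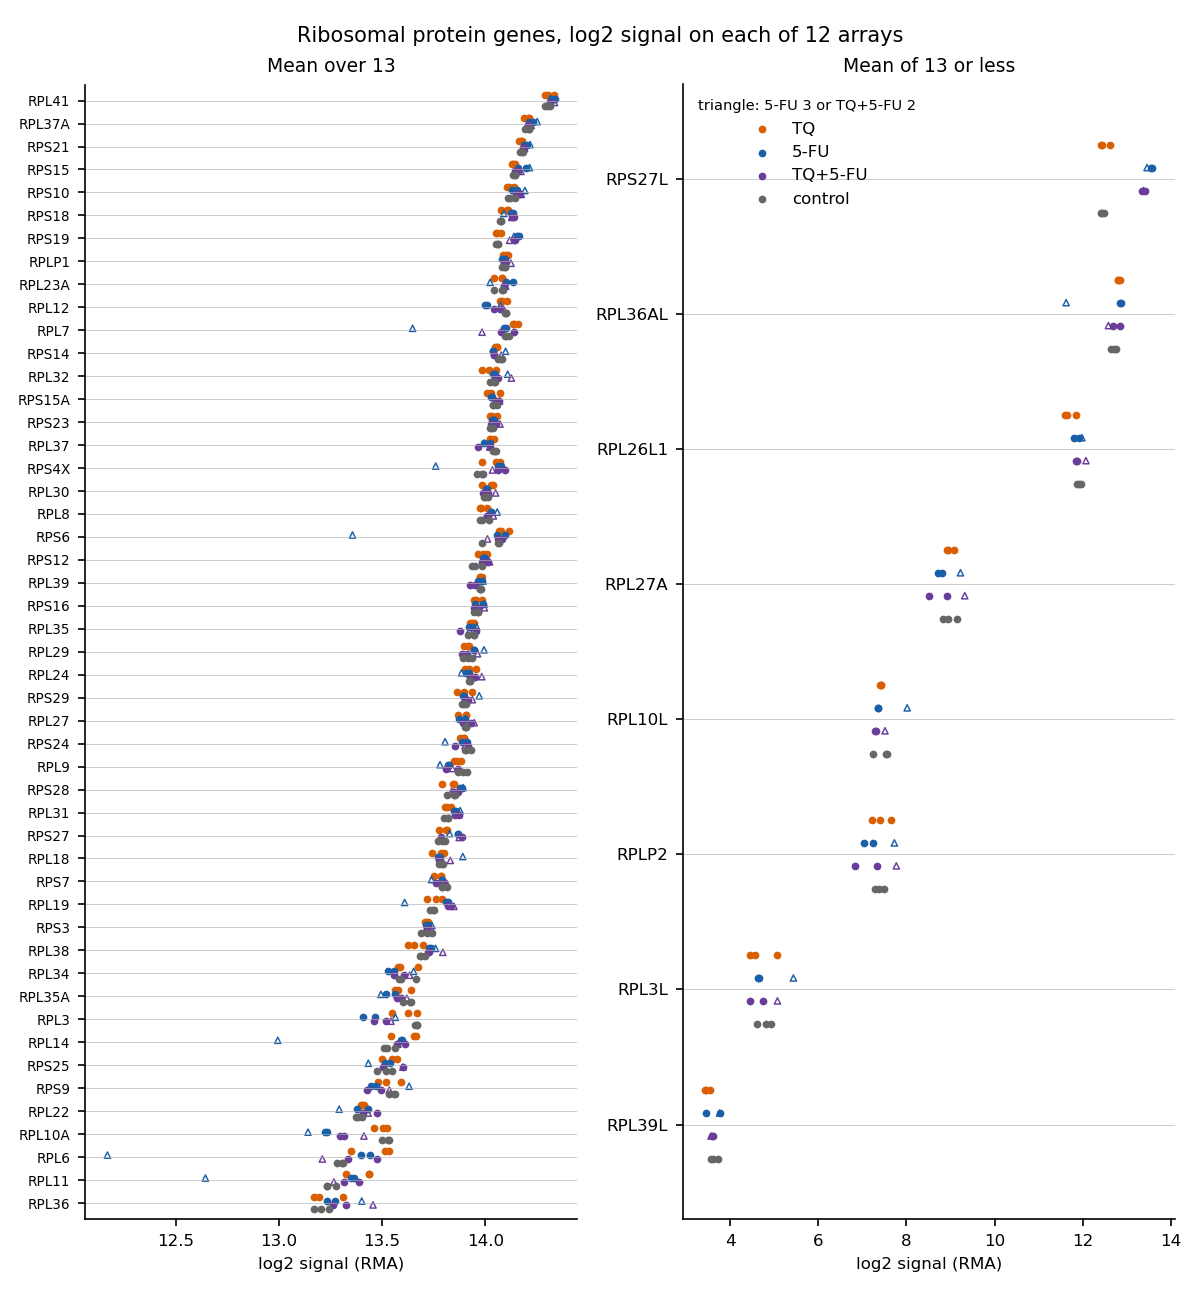
Log2 signal of 57 ribosomal protein genes on each of 12 arrays, in rows ordered by mean, with the 49 genes over 13 on the left and 8 dimmer genes on the right (1 Y-linked gene is not drawn). Points are arrays coloured by group, and open triangles are 5-FU replicate 3 and TQ+5-FU replicate 2; most rows on the left are narrow, with a few triangles at lower signal, and the row of RPS27L spans 1.17.

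The 9 members with a mean of 13 or less included all 7 paralogs measured, some of which are expressed in few tissues. RPL39L, a copy of RPL39 known from testis, averaged 3.59, against 13.97 for RPL39. RPL3L, known from striated muscle, averaged 4.78, against 13.57 for RPL3, and RPL10L, known from testis, averaged 7.45. Higher signals came from RPL26L1 at 11.86, RPL36AL at 12.67 and RPS27L at 12.96, and the level of RPS4Y1, the Y-linked copy of RPS4X, is not given. Probe sets differ in how strongly they bind, so these values order signals and not amounts of RNA. The remaining 2 dim members were RPLP2, a protein of the ribosomal stalk, and RPL27A, at 7.37 and 8.95. Probe sets that name them together with a second gene read between 13.96 and 14.05 for RPLP2 and between 13.95 and 14.02 for RPL27A, so the signal of these genes depends on the probe set.

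The first comparison asked which ribosomal protein genes answered to 5-FU. RPS27L rose, and no other member passed the threshold (limma, Benjamini-Hochberg adjusted p under 0.05 over 22215 probe sets). Thus 1 of 58 members was called, where 6.68% of all probe sets were called. At an unadjusted p under 0.05, 1 member was higher and 1 lower, where 18.5% of all probe sets passed. The median member difference was 0.0029, and that of all genes was 0.09. For 46 of the 58 members the difference was smaller than 0.1.

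RPS27L encodes a small-subunit protein nearly identical to RPS27. It read 13.54, 13.59 and 13.46 with 5-FU, and 12.42, 12.43 and 12.49 in control. The groups did not overlap, and the gap was several times the spread within either group. The difference was 1.09 (SE 0.096, adjusted p = 1.6e-04), a fold change of 2.12 with a 95% interval of 1.83 to 2.46. Without the 2 displaced arrays it was 1.12 (adjusted p = 8.3e-06).

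RPS27, the partner of RPS27L, was not called. It read 13.87, 13.87 and 13.83 with 5-FU, and 13.79, 13.77 and 13.81 in control, with a difference of 0.06 (95% interval -0.13 to 0.25, adjusted p = 0.70). All 5-FU arrays were above all control arrays, by little, and RPS27 sits nearer the upper end of the scale than RPS27L. The probe set of RPS27L carries the _s_at suffix, which marks probes shared by several transcripts, and binding of RPS27 transcripts to it was not tested. RPS27L had no second single-gene probe set.

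RPL10A and RPL3 lay at the low end of the members with 5-FU. RPL10A, a protein of the mobile L1 stalk of the large subunit, read 13.23, 13.22 and 13.14 with 5-FU, and 13.53, 13.50 and 13.53 in control. All 5-FU arrays were below all control arrays, and the difference of -0.32 (SE 0.088) missed the threshold (adjusted p = 0.057). Without the 2 displaced arrays it passed, at -0.29 (adjusted p = 0.011), and without 5-FU replicate 3 alone it also passed (adjusted p = 0.031).

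RPL3, which reaches close to the centre where peptide bonds form, read 13.47, 13.41 and 13.56 with 5-FU, and 13.67, 13.67 and 13.66 in control. Here too the groups did not overlap. The difference was -0.19 (SE 0.091, adjusted p = 0.32), and -0.23 without the 2 displaced arrays (adjusted p = 0.048). This probe set averaged 13.57. Brighter ones that name RPL3 together with small nucleolar RNA genes averaged 13.68 to 13.85, and their differences are not given here. Leaving the 2 displaced arrays out thus gave 1 member higher and 2 lower of 58, where 26.1% of all probe sets passed. Among the 142 bright probe sets of other genes, 5 passed with all arrays (3.52%) and 22 without the 2 arrays (15.5%).

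RPS19, the gene most often mutated in Diamond-Blackfan anaemia, read 14.16, 14.15 and 14.14 with 5-FU, and 14.06, 14.05 and 14.06 in control. The groups were separate, and the difference of 0.09 (SE 0.083, adjusted p = 0.57) was small beside the moderated error. Limma draws the error of each probe set toward that of all probe sets, most of which vary more than these genes. With an error prior that depends on the signal, RPL10A and RPL3 passed as well with 5-FU (adjusted p = 0.0017 and 0.046), and RPS19 did not (adjusted p = 0.064). This prior thus called 3 of 58 members with 5-FU, where it called 6.35% of all probe sets and 15.5% of the bright probe sets of other genes. The methods' ANOVA with Tukey's HSD, which uses each gene's own error, called 4 of 58 members with 5-FU, namely RPL10A, RPL31, RPS19 and RPS27L, where it called 6.26% of all probe sets.

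**Figure D2:**
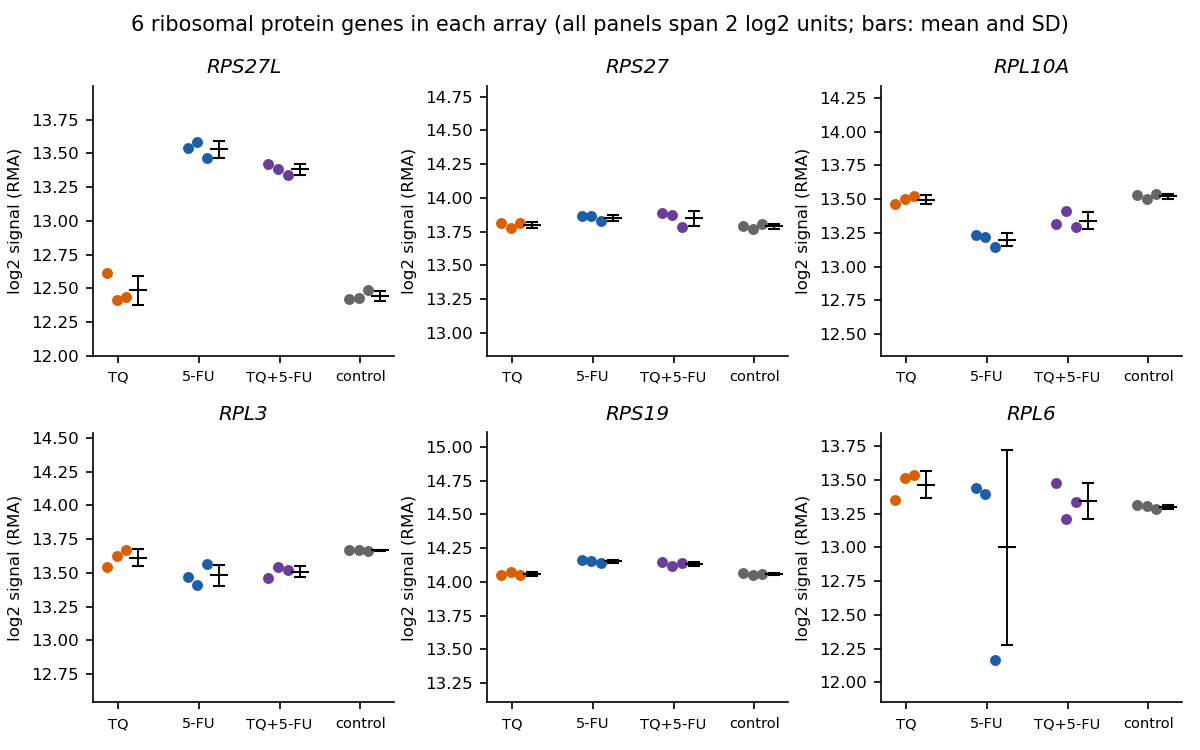
Log2 signal of 6 ribosomal protein genes by group, with a point for each array and a bar for the mean and SD of 3 arrays; every panel spans the same number of log2 units. RPS27L stands higher on the arrays with 5-FU alone and with TQ+5-FU, RPL10A and RPL3 lie slightly lower there, and RPL6 has 1 low array, 5-FU replicate 3, at 12.17.

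For TQ, no member passed the threshold, and none passed at an unadjusted p under 0.05, where 0.252% and 9.71% of all probe sets did. Without the 2 displaced arrays, which are not TQ or control arrays but enter the shared error, 30.6% of all probe sets passed, 2.11% of the bright probe sets of other genes, and no member. The methods' t-test gave 4 members unadjusted (35.3% of all probe sets) and 0 after Benjamini-Hochberg (16.2%), and ANOVA with Tukey's HSD gave 0 (2.93%). The median member difference was -0.00005, and that of all genes was -0.09. For 52 of the 58 members the difference was smaller than 0.1.

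RPS27L read 12.61, 12.41 and 12.43 with TQ, which overlaps the control arrays, and the difference of 0.04 has a 95% interval of -0.17 to 0.25. RPL11, the MDM2 binder, read 13.33, 13.44 and 13.44 with TQ, and 13.28, 13.23 and 13.23 in control, a difference of 0.15 (adjusted p = 0.81). RPL26L1, a copy of RPL26, had the most negative member difference, -0.22 (adjusted p = 0.59), with 11.85, 11.64 and 11.60 with TQ, and 11.91, 11.87 and 11.97 in control. Both of these genes were separate between the groups, and neither difference passed. RPL6 had the most positive one, 0.17 (adjusted p = 0.87), with 13.35, 13.52 and 13.53 with TQ, and 13.31, 13.31 and 13.28 in control.

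With TQ+5-FU, RPS27L rose and no other member was called, so 1 of 58 passed where 2.58% of all probe sets did. Unadjusted, it was again the 1 member that passed, where 11.2% of all probe sets did. The count was the same without the 2 displaced arrays, where 21.4% of all probe sets passed and 4.23% of the bright probe sets of other genes. The median member difference was 0.014, equal at this precision to the 0.014 of all genes.

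RPS27L read 13.42, 13.38 and 13.34 with TQ+5-FU, all above the control arrays. The difference was 0.94 (SE 0.096, adjusted p = 7.4e-04), a fold change of 1.92 (95% interval 1.66 to 2.22). RPL10A read 13.31, 13.41 and 13.29 with TQ+5-FU, below all control arrays, with a difference of -0.18 (adjusted p = 0.51). RPL3 read 13.46, 13.54 and 13.52 with TQ+5-FU, also below all control arrays, with -0.16 (adjusted p = 0.67). Without the 2 displaced arrays these differences were -0.22 for RPL10A (adjusted p = 0.053) and -0.18 for RPL3 (adjusted p = 0.13).

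Adding TQ to 5-FU gave no member past the threshold by limma, where 0.738% of all probe sets passed, and none without the 2 displaced arrays (6.13% of all probe sets) or at an unadjusted p under 0.05 (9.49%). The methods' t-test gave 5 members unadjusted (4.62% of all probe sets) and 0 adjusted (0%), and ANOVA with Tukey's HSD called 1, RPL10A (3.48%). RPS27L was lower on every TQ+5-FU array than on every 5-FU array. The difference of -0.15 did not pass (adjusted p = 0.67), and its interval allows a fold change between 0.780 and 1.05. In this comparison 5 members lay wholly higher and 3 wholly lower, where 9.84% of all probe sets did not overlap.

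Adding 5-FU to TQ raised RPS27L by 0.90 (adjusted p = 0.0025), the 1 member called where 0.968% of all probe sets passed. It was also the 1 without the 2 displaced arrays (11.7% of all probe sets) and unadjusted (12.1%). Groups did not overlap for 11 higher and 4 lower members, where 29.2% of all probe sets did not. TQ set against 5-FU directly gave RPS27L as the 1 member called, at -1.04 (adjusted p = 1.7e-04), where 10.2% of all probe sets passed. Without the 2 displaced arrays RPL10A passed as well, higher in TQ by 0.27 (adjusted p = 0.017; 28.6% of all probe sets), and both genes passed unadjusted (31.6%). Here 5 members lay wholly higher and 10 wholly lower in TQ, where 38.8% of all probe sets did not overlap.

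The interaction is the TQ+5-FU difference minus those of TQ and of 5-FU. It called no member, where 0.126% of all probe sets passed, none without the 2 displaced arrays (9.89%) and none unadjusted (6.09%). For RPS27L it was -0.19 (95% interval -0.49 to 0.11). Tested for any difference across the 4 groups with limma's F statistic, RPS27L was the 1 member called, where 7.54% of all probe sets passed. Without the 2 displaced arrays RPL10A joined it, where 42% of all probe sets passed.

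**Figure D3:**
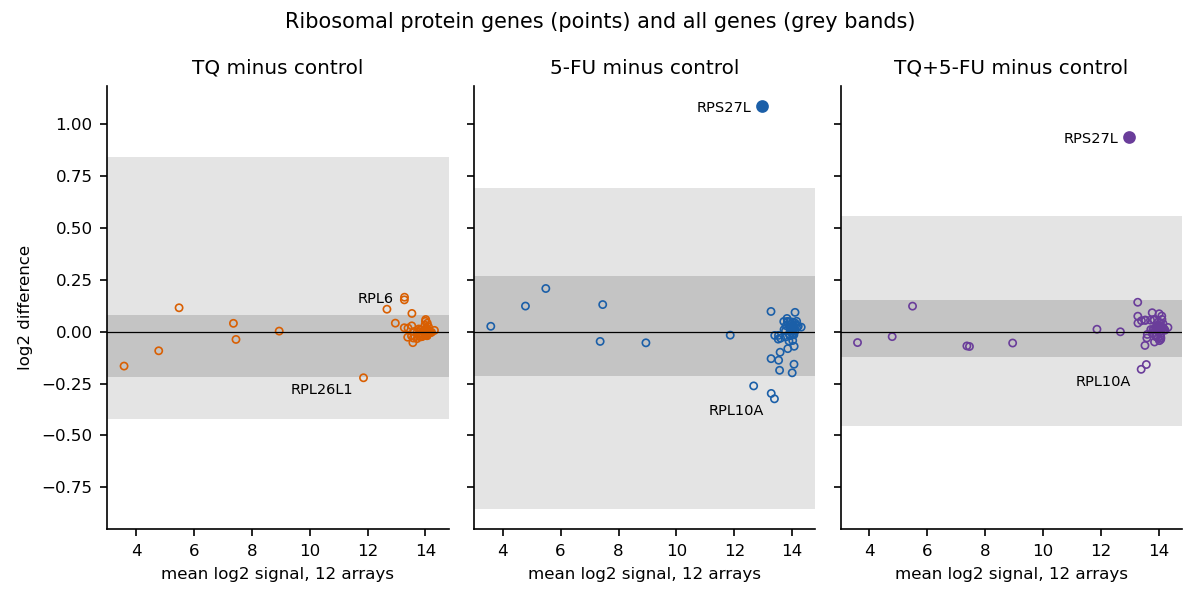
Log2 difference from control of 58 ribosomal protein genes against their mean log2 signal, for TQ, 5-FU and TQ+5-FU. Filled points passed an adjusted p of 0.05, and the grey bands hold the middle 50% (dark) and 90% (light) of all genes; RPS27L at 1.09 and 0.94 is the 1 filled gene and lies above the light band with 5-FU and again with TQ+5-FU.

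The range of differences in signal that the data allow is narrow for most members. Of these, 49 had a mean over 13, near the upper end of values that had been quantile normalized. For them the intervals bound the signal and need not bound the change in RNA. The 95% interval lay wholly within 0.5 of zero for 53 of 58 members with TQ, 47 with 5-FU and 52 with TQ+5-FU, and without the 2 displaced arrays for 58, 54 and 54. Every treated array lay above or below every control array for 5 higher and 5 lower members with TQ, where 44.4% of all probe sets were separate. With 5-FU the counts were 12 higher and 6 lower (24.5% of all probe sets), and with TQ+5-FU 15 higher and 5 lower (24.1%).

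The contrasts TQ against control and TQ+5-FU against 5-FU share no array. Over the 58 members their differences correlated with r = 0.53, and without the 2 displaced arrays with r = -0.12, where all genes gave 0.58 and 0.31. The contrasts 5-FU against control and TQ+5-FU against TQ gave r = 0.91, and 0.67 without RPS27L, where all genes gave 0.72. Leaving out the displaced arrays gave 0.91, 0.67 and 0.45. These are descriptions over genes of the same arrays, and genes are not replicates.

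The members furthest from control, other than RPS27L, were on a single array. On 5-FU replicate 3, 7 members lay more than 0.3 below the control mean and 5 more than 0.3 above it, while each of the other arrays had 0 to 3 below and 0 to 3 above. RPL6, a large-subunit protein, read 13.44, 13.40 and 12.17 with 5-FU, and 13.31, 13.31 and 13.28 in control. RPL36AL, a copy of RPL36A, read 12.87, 12.85 and 11.63 with 5-FU, and 12.76, 12.65 and 12.72 in control. In both genes the first 2 arrays of 5-FU were above all control arrays and replicate 3 lay at least 1 below them.

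Other members shared this drop. RPS6, the substrate of S6 kinase, read 14.06, 14.10 and 13.36 with 5-FU, and 14.06, 14.06 and 13.98 in control, and RPL11 read 13.35, 13.36 and 12.64 with 5-FU, and 13.28, 13.23 and 13.23 in control. RPL14 and RPL7, both of the large subunit, gave differences of -0.60 and -0.45 between that array and the average of its replicates. The other bright probe sets of RPS6 read 13.20 and 13.19 there, against 13.85 to 14.02 on the other 5-FU arrays, so the drop was not limited to 1 probe set. RPL5, read with a small nucleolar RNA gene, gave 13.71, 13.69 and 12.59 with 5-FU, and 13.82, 13.79 and 13.77 in control.

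Dim members were higher on the same array, with RPL3L, RPL10L and RPLP2 above the other 5-FU arrays by 0.80, 0.66 and 0.58. On TQ+5-FU replicate 2 the lowest members relative to the other arrays of the group were again RPL6 (-0.20), RPL36AL (-0.18) and RPL7 (-0.12). Over all genes, 5-FU replicate 3 had a median deviation of 0.37 from control, and its poly-A spike-in controls averaged 9.47, against 8.22 to 8.97 on the other arrays. The part of either in the member values was not tested. The ratio of 3′ to 5′ GAPDH signal on 5-FU replicate 3, 0.063 on the log2 scale, lay within the range of the other arrays. That of ACTB, 0.557, was the lowest, beside 0.573 to 0.957 on the other arrays.

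**Figure D4:**
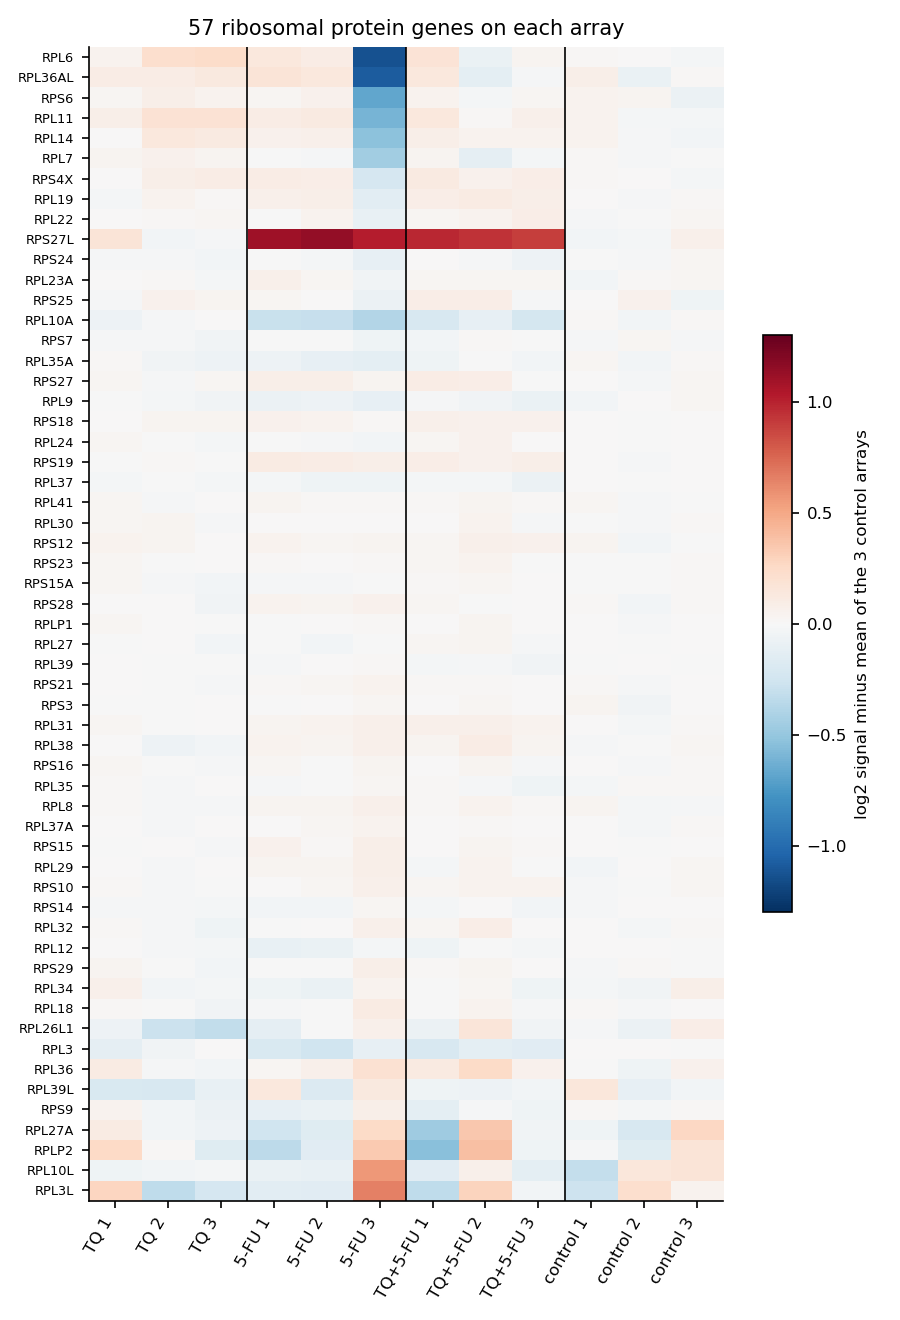
Log2 signal of 57 ribosomal protein genes on each array minus the mean of the 3 control arrays, with genes ordered by how far 5-FU replicate 3 lies from the other 5-FU arrays (1 Y-linked gene is not drawn). Red is higher and blue lower; RPS27L is red on all arrays with 5-FU alone or with TQ, and the blue block at the top is 5-FU replicate 3, where RPL6 lies 1.25 below the other 5-FU arrays.

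By role, the members with a known link to p53 or MDM2 came first. Of 16 such genes 10 were measured on a probe set of their own. By limma RPS27L was the 1 called with 5-FU and with TQ+5-FU (6.68% and 2.58% of all probe sets), and 0 passed with TQ (0.252%). RPS3, which also cuts damaged DNA, read 13.71, 13.71 and 13.72 with TQ, 13.71, 13.72 and 13.74 with 5-FU, 13.72, 13.74 and 13.72 with TQ+5-FU, and 13.74, 13.69 and 13.72 in control. RPS7, an MDM2 binder, read 13.79, 13.79 and 13.75 with TQ, 13.79, 13.79 and 13.74 with 5-FU, 13.76, 13.81 and 13.80 with TQ+5-FU, and 13.79, 13.82 and 13.79 in control. RPS25, another MDM2 binder, read 13.50, 13.57 and 13.55 with TQ, 13.54, 13.51 and 13.43 with 5-FU, 13.60, 13.60 and 13.50 with TQ+5-FU, and 13.52, 13.55 and 13.47 in control. These 3 genes, and RPS14 and RPS15 of the same list, differed by less than 0.1 from control in each treatment.

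Of 19 Diamond-Blackfan anaemia genes, 13 were measured and 0 passed in any comparison with control by limma, adjusted or unadjusted. Of all probe sets, 0.252%, 6.68% and 2.58% passed with TQ, 5-FU and TQ+5-FU, and 9.71%, 18.5% and 11.2% unadjusted. The methods' ANOVA with Tukey's HSD called RPL31 and RPS19 of this list with 5-FU (6.26% of all probe sets). The differences of the 13 genes with 5-FU lay between -0.13 (RPL11) and 0.09 (RPS19). That of RPL11 rests on the low 5-FU replicate 3 array, and it was 0.11 without the 2 displaced arrays (limma, adjusted p = 0.37). RPS24, a second gene of this anaemia, read 13.90, 13.90 and 13.88 with TQ, 13.91, 13.89 and 13.81 with 5-FU, 13.92, 13.90 and 13.85 with TQ+5-FU, and 13.91, 13.90 and 13.93 in control. The lowest array of RPS24 was again 5-FU replicate 3, and the groups overlapped in each treatment except TQ.

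Of 8 proteins around the exit of the peptide tunnel 6 were measured, and 0 passed against control by limma, adjusted or unadjusted. Of all probe sets, 0.252%, 6.68% and 2.58% passed with TQ, 5-FU and TQ+5-FU, and 9.71%, 18.5% and 11.2% unadjusted. The methods' ANOVA with Tukey's HSD called RPL31 of these genes with 5-FU, where it called 6.26% of all probe sets. RPL31, at the rim of the exit, read 13.84, 13.80 and 13.82 with TQ, 13.85, 13.86 and 13.88 with 5-FU, 13.87, 13.87 and 13.85 with TQ+5-FU, and 13.82, 13.80 and 13.82 in control. With 5-FU and with TQ+5-FU its arrays lay above all control arrays, by a difference of 0.05 and 0.06 (adjusted p = 0.75 and 1.00). A dimmer probe set of RPL31 went the other way with 5-FU, at -0.27 (adjusted p = 0.23), and at -0.30 without the 2 displaced arrays (adjusted p = 0.038). Another was at 0.01 (adjusted p = 0.99), and at 0.38 without those arrays (adjusted p = 0.0076), where 26.1% of all probe sets passed. RPL35, also at the rim, read 13.95, 13.92 and 13.94 with TQ, 13.92, 13.94 and 13.96 with 5-FU, 13.95, 13.92 and 13.88 with TQ+5-FU, and 13.92, 13.95 and 13.95 in control and every treated group overlapped the control arrays.

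The stalk recruits the factors that drive translation. Of its 3 proteins RPLP1 and RPLP2 were measured, and neither was called. RPLP1 read 14.11, 14.10 and 14.09 with TQ, 14.08, 14.10 and 14.10 with 5-FU, 14.10, 14.12 and 14.09 with TQ+5-FU, and 14.10, 14.08 and 14.10 in control. RPLP2, on its dim probe set, read 7.65, 7.40 and 7.23 with TQ, 7.05, 7.24 and 7.73 with 5-FU, 6.84, 7.77 and 7.33 with TQ+5-FU, and 7.38, 7.28 and 7.50 in control, a wide spread within groups that overlapped in each treatment.

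Of the 7 paralogs, RPS27L was the 1 called by limma with 5-FU and with TQ+5-FU (6.68% and 2.58% of all probe sets). The parent genes can be set beside the rest. RPL22, the parent of RPL22L1, read 13.40, 13.40 and 13.41 with TQ, 13.38, 13.43 and 13.29 with 5-FU, 13.41, 13.43 and 13.48 with TQ+5-FU, and 13.37, 13.38 and 13.40 in control. The dim paralogs varied more than the bright parents. RPL3L read 5.06, 4.45 and 4.56 with TQ, 4.65, 4.64 and 5.44 with 5-FU, 4.46, 5.07 and 4.75 with TQ+5-FU, and 4.61, 4.93 and 4.82 in control. RPL39L read 3.44, 3.43 and 3.53 with TQ, 3.77, 3.45 and 3.76 with 5-FU, 3.58, 3.56 and 3.60 with TQ+5-FU, and 3.73, 3.56 and 3.61 in control. RPL10L read 7.40, 7.41 and 7.42 with TQ, 7.37, 7.35 and 8.02 with 5-FU, 7.30, 7.51 and 7.32 with TQ+5-FU, and 7.24, 7.54 and 7.56 in control. In the 3 dim paralogs the 5-FU replicate 3 array was the highest 5-FU array or within 0.01 of it, and no comparison with control passed.

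The 16 genes read only together with a second gene, mostly small nucleolar RNA genes in their introns, had levels of 13.49 to 14.23. On the brightest probe set of each, none was called in any comparison with control by limma, with or without the 2 displaced arrays. RPL5, the partner of RPL11, read 13.78, 13.92 and 13.88 with TQ, and 13.82, 13.62 and 13.71 with TQ+5-FU, beside the 5-FU and control values above. RPL23, another MDM2 binder, read 13.52, 13.49 and 13.50 with TQ, 13.48, 13.46 and 13.44 with 5-FU, 13.54, 13.49 and 13.50 with TQ+5-FU, and 13.46, 13.49 and 13.48 in control. RPL13A, often used as a reference gene, read 14.02, 14.03 and 14.01 with TQ, 14.03, 14.02 and 14.04 with 5-FU, 14.01, 14.03 and 14.03 with TQ+5-FU, and 14.01, 14.03 and 14.02 in control. Of these 3 genes RPL5 shows the low 5-FU replicate 3 array most plainly. On these brightest probe sets the differences of the 16 genes lay between -0.02 and 0.08 with TQ, between -0.46 and 0.09 with 5-FU, and between -0.07 and 0.08 with TQ+5-FU. Without the 2 arrays the 5-FU range was -0.09 to 0.07.

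The 16 genes had 31 other probe sets, 18 with a mean over 13 and 13 dimmer, and some of the dimmer ones were called. A dim probe set of RPS20, a small-subunit protein, read 5.38, 5.39 and 5.41 with TQ, 5.28, 5.72 and 4.79 with 5-FU, 5.33, 5.31 and 5.56 with TQ+5-FU, and 6.46, 6.33 and 6.51 in control. All treated arrays lay below all control arrays. The 5-FU difference was -1.17 (adjusted p = 0.0054) and that of TQ+5-FU was -1.03 (adjusted p = 0.022). The TQ difference of -1.04 missed the threshold (adjusted p = 0.069), and all 3 passed without the 2 displaced arrays. A probe set of RPL10, a protein of the large subunit, was the other one called, with 5-FU at -0.44 (adjusted p = 0.024). Thus 2 of the 31 passed with 5-FU and 1 with TQ+5-FU, where 6.68% and 2.58% of all probe sets passed. Without the 2 arrays 5 passed with TQ, 4 with 5-FU and 4 with TQ+5-FU, where 30.6%, 26.1% and 21.4% of all probe sets passed.

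Other probe sets of the members did not always follow the brightest one. Of 38 such probe sets, 15 had a mean over 13 and 23 were dimmer. The 1 of 38 called, with 5-FU and with TQ+5-FU (6.68% and 2.58% of all probe sets), was a dim probe set of RPS14, a small-subunit protein lost in the 5q- syndrome. It read 5.34, 5.43 and 5.51 with 5-FU, 5.61, 5.15 and 5.30 with TQ+5-FU, and 6.26, 6.23 and 6.30 in control. All treated arrays lay below all control arrays. The differences were -0.84 with 5-FU (adjusted p = 0.0032) and -0.91 with TQ+5-FU (adjusted p = 0.0045). With TQ it read 5.56, 5.75 and 5.64, a difference of -0.61 (adjusted p = 0.089). The bright probe set of RPS14 read 14.06, 14.06 and 14.05 with TQ, 14.04, 14.04 and 14.10 with 5-FU, 14.04, 14.08 and 14.04 with TQ+5-FU, and 14.06, 14.08 and 14.08 in control. It differed by -0.02 in each comparison with control, so the call of this gene depends on the probe set. With those 2 displaced arrays left out, 6 of the 38 passed with TQ, 5 with 5-FU and 5 with TQ+5-FU, where 30.6%, 26.1% and 21.4% of all probe sets did.

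Other genes of ribosome production were counted from lists. Of 67 measured nucleolar factors, which make and assemble ribosomes, 14 fell and 0 rose with 5-FU, with a median difference of -0.65 beside 0.09 for all genes and 6.68% of all probe sets called. URB2 fell by 1.00, NOP14, of the early small-subunit precursor, by 0.83, and RRS1 by 0.75. POLR1B, the second largest subunit of RNA polymerase I, fell by 0.67 with 5-FU and by 0.56 with TQ+5-FU. It and URB2 were the 2 of 67 called with TQ+5-FU (2.58% of all probe sets). With TQ, 0 of 67 passed (0.252% of all probe sets), and 2 higher and 5 lower passed unadjusted (9.71%). After the displaced arrays were left out, 37 fell with 5-FU, with a median of -0.35, where 26.1% of all probe sets passed, and 27 rose and 19 fell with TQ, where 30.6% did.

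Among 50 mitochondrial ribosomal protein genes, MRPL49 rose by 1.03 with 5-FU, and MRPL19 and MRPS27 fell by 0.58 and 0.56. No others of this list were called with 5-FU, where 6.68% of all probe sets passed. With TQ+5-FU, MRPL18 rose by 0.51, where 2.58% of all probe sets passed. With TQ none passed (0.252% of all probe sets), with 0 higher and 1 lower unadjusted (9.71%). Of 20 measured translation genes with TOP mRNAs other than ribosomal proteins, 0 passed in any comparison with control by limma. Unadjusted, 1 was higher with TQ (9.71% of all probe sets) and 2 were lower with 5-FU (18.5%). Of 5 measured p53 and stress genes, 4 rose with 5-FU and with TQ+5-FU, where 6.68% and 2.58% of all probe sets passed. MDM2 rose by 1.58 with 5-FU and by 1.60 with TQ+5-FU, and CDKN1A (p21, an inhibitor of the cell cycle) rose by 0.68 with each, while MDM4, a partner of MDM2, fell by 1.22 with 5-FU. With TQ, MDM2 differed by 0.77 (adjusted p = 0.19) and CDKN1A by -0.08 (adjusted p = 0.88), while ATF3, a stress-induced transcription factor, rose by 0.80 (adjusted p = 0.0497). GDF15, of the same list, rose by 4.34 with 5-FU and by 2.78 with TQ+5-FU, and differed by -0.57 with TQ (adjusted p = 0.27). With the displaced arrays left out, MDM2 and ATF3 passed as higher with TQ by limma (adjusted p = 0.0011 and 5.4e-04) and GDF15 as lower (adjusted p = 0.0045). CDKN1A and MDM4 did not pass there (adjusted p = 0.52 and 0.64), where 30.6% of all probe sets did.

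**Figure D5:**
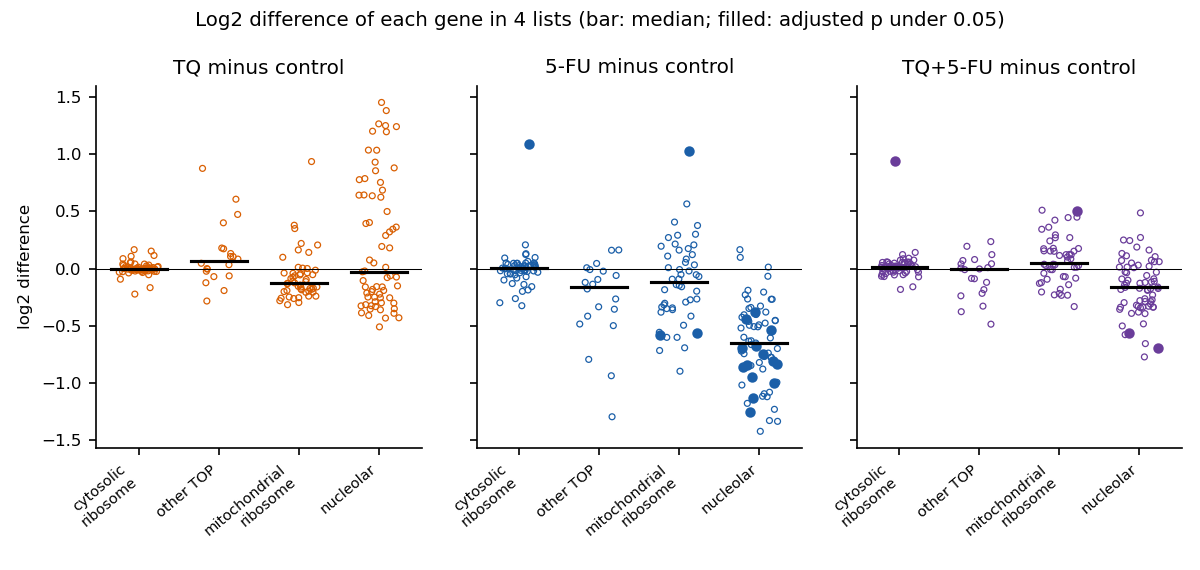
Log2 difference from control of each gene in 4 lists, for TQ, 5-FU and TQ+5-FU, with filled points past an adjusted p of 0.05 and a bar at the list median. The cytosolic ribosomal proteins have medians within 0.014 of 0, and the nucleolar factors have medians of -0.03 with TQ, -0.65 with 5-FU and -0.16 with TQ+5-FU.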

How the data were processed

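RNA of RKO cells was hybridized to 12 Affymetrix Human Genome arrays of the U133 family in 4 groups of 3. The authors deposited log2 signals, 1 column per array, after background correction, quantile normalization and summary by RMA. The study's methods name GeneSpring GX for this step and the submitters' processing notes Affymetrix Expression Console, which the values alone cannot settle. The values were used as deposited. Of all probe sets, 62 controls were left out and 22215 tested. Arrays give no read depth, and 3 arrays per group limit the precision.

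Differences were fitted with limma 3.58.1 in R 4.3.3, 1 mean per group over all 12 arrays, with default empirical Bayes moderation and two-sided tests. P-values were adjusted by Benjamini-Hochberg over all probe sets tested, at 0.05. Genes were named from the platform annotation, in which 1043 probe sets name several genes and 2108 none. Some other ribosomal protein genes were not analysed here. Suffixes _x_at and _s_at, carried by 15 and 29 of the 58 chosen probe sets, mark probes that can bind related transcripts or pseudogenes, so those values are uncertain in that respect. Start sites are from RefSeq (GRCh38.p14). Values per array are given for members past the threshold and for lead genes of the role groups, and a few others were chosen after their values were seen. The members and lists were chosen with earlier results of these data known.

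Alternatives were the tests named in the study's methods (ANOVA with Tukey's HSD, and a t-test), a limma fit to the compared groups alone, a replicate block, quantile normalization, centring, leaving out the dimmest 30% of probe sets, taking the mean of a gene's probe sets or leaving out _x_at and _s_at ones, array weights, a trended robust prior, a 2-fold threshold, and leaving out each array or the 2 displaced arrays. The trended prior without those 2 arrays was added after seeing the data. The fit was tested on simulated data. Python 3.11.15 with matplotlib 3.10.9 drew the figures.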

Additional observations from a re-analysis of the deposited data

Results flagged for a closer look

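The arrays carry control probe sets for ribosomal RNA, which are outside the comparisons of ribosomal protein genes. Of the 6, 2 for 28S rRNA passed the threshold as higher than control in at least 1 treatment. The probe set for the middle of 28S read 12.56, 12.42 and 12.45 in TQ cells. It read 11.33, 11.47 and 12.04 in 5-FU cells and 12.51, 12.77 and 12.66 in TQ+5-FU cells, against 10.61, 10.91 and 10.98 in control. TQ gave a difference of 1.64 (limma over all probe sets, adjusted p = 0.0073) and TQ+5-FU one of 1.81 (adjusted p = 7.0e-04). That of 5-FU was smaller, at 0.78 (adjusted p = 0.029). All treated arrays were above all control arrays, and without the 2 displaced arrays the differences were 1.64 with TQ, 0.57 with 5-FU and 1.75 with TQ+5-FU, all past the threshold. The probe set for the 5′ part of 28S was higher by 0.57 with TQ+5-FU (adjusted p = 0.031) and differed by 0.53 with TQ (adjusted p = 0.11) and -0.11 with 5-FU (adjusted p = 0.63). With those arrays left out it passed as higher with TQ+5-FU (0.55, adjusted p = 5.9e-04) and with TQ (0.53, adjusted p = 5.6e-04) and as lower with 5-FU (-0.23, adjusted p = 0.040). The 3′ part of 28S differed by 0.13, 0.38 and 0.34 with TQ, 5-FU and TQ+5-FU, none past the threshold. The 3 probe sets for 18S were not past it either, with all arrays, and with 5-FU those for its 5′ part and middle were at -0.35 and -0.30 (adjusted p = 0.11 and 0.16). Both passed as lower with 5-FU without the 2 displaced arrays, at -0.41 and -0.36 (adjusted p = 0.0099 and 0.016). Why the parts of 1 rRNA differ was not tested.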

How the results depend on the processing

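The ribosomal protein counts depend on the error used. RPS27L stayed past the threshold with 5-FU and TQ+5-FU when any single array was left out, with differences of 1.06 to 1.12 and 0.92 to 0.96. The methods' t-test, unadjusted, called 4 members with TQ, 15 with 5-FU, 10 with TQ+5-FU, 5 for TQ+5-FU against 5-FU, 10 for TQ+5-FU against TQ and 12 for TQ against 5-FU, where it called 35.3%, 11.6%, 16%, 4.62%, 15% and 14.5% of all probe sets. After Benjamini-Hochberg it called 3 with 5-FU, 3 with TQ+5-FU and 0 for TQ+5-FU against TQ (1.19%, 2.46% and 0.18% of all probe sets). ANOVA with Tukey's HSD called 4 with 5-FU, 4 with TQ+5-FU, 1 for TQ+5-FU against 5-FU and 4 each for TQ+5-FU against TQ, TQ against 5-FU and any difference across groups (6.26%, 4.62%, 3.48%, 3.99%, 5.94% and 7.51% of all probe sets). Quantile normalization and the filter on dim probe sets each gave 2 with 5-FU and 2 for TQ against 5-FU (RPL10A and RPS27L). Leaving out the 2 displaced arrays gave 3, 2 and 2 with 5-FU, for TQ against 5-FU and across groups, as did the trended robust prior. Both together, added after seeing the data, gave 3 with TQ, 7 with 5-FU, 5 with TQ+5-FU, 3 for TQ+5-FU against TQ, 5 for TQ against 5-FU and 7 across groups, where 31.8%, 28%, 23.8%, 14.4% and 30% of all probe sets passed in the first 5 of these and 30.3%, 42.3%, 27.5%, 14.1% and 43.7% of the bright probe sets of other genes. The mean of all probe sets of a gene gave 2 for TQ against 5-FU and 2 across groups (RPL37A and RPS27L). Probe sets with neither the _x_at nor the _s_at suffix leave out RPS27L, so TQ+5-FU against TQ gave 0, and the 1 member called with 5-FU and with TQ+5-FU was RPS14. The 2-fold threshold gave 0 with TQ+5-FU and 0 for TQ+5-FU against TQ, since RPS27L is below it there. Array weights gave 4 with TQ, 8 with 5-FU, 10 with TQ+5-FU, 12 for TQ+5-FU against 5-FU, 8 for TQ+5-FU against TQ, 6 for TQ against 5-FU, 9 for the interaction and 16 across groups. Their estimate stopped before it converged, with weights of 0.006 to 110.5, so these counts are not reliable. Centring the arrays moved the median member difference to -0.033 with TQ and 0.052 with 5-FU. Leaving out single arrays gave 1 to 2 members with 5-FU and for TQ against 5-FU, where RPL10A joined without 5-FU replicate 3, and medians of -0.0017 to 0.011 with 5-FU. The TQ difference of RPS27L turned to -0.022 without TQ replicate 1, and leaving out single arrays gave -0.022 to 0.077, none past the threshold.

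Over 18 same-numbered pairs of arrays from different groups the correlation of deviations lay between -0.84 and 0.86, over 0.1 in 6. Its mean was -0.076, against 0.063 for pairs with other numbers. Pairs with other numbers reached -0.88 and 0.88, so these values cannot tell whether the replicate numbers mark matched sets. With the replicate block the counts were 0 with TQ, 1 with 5-FU and 1 with TQ+5-FU. Where not named, the cause of a changed count was not tested. For the brightest members the upper end of the scale limits what could be seen.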
